A study of Mus musculus with 21 samples.

Results

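The genes described are 9 that code for proteins by which white blood cells adhere to the vessel wall: Icam1, Icam2, Sele, Selp, Selplg, Itgal, Itgb2, Itga4 and Itgb7. They were chosen by name, and all 9 of them were found by symbol among the 21657 gene identifiers of the deposited tables. Kidney RNA was sequenced in female apoE KO mice on the C57BL/6J background, in which Apoe is disrupted and plasma cholesterol is high, fed from 4 weeks of age for 14 weeks and taken at 18 weeks of age. The Con group (5 mice) received chow, the Ade group (6 mice) chow with adenine, which injures the kidney tubules, and the Ade + IMC group (6 mice) chow with adenine and iodomethylcholine, an inhibitor of the bacterial enzyme that makes trimethylamine from choline. Another 4 mice, labelled Con + IMC, were not analysed here, so the effect of IMC without adenine was not measured. The study asked whether IMC prevents the kidney disease caused by adenine, and the 3 groups give the changes of adhesion genes with adenine, with adenine and IMC, and between the 2 adenine diets.

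White blood cells leave the blood in steps. The selectins Sele (E-selectin) and Selp (P-selectin) on activated endothelium catch rolling cells through the glycoprotein ligand PSGL-1, which Selplg encodes. Integrins on the leukocyte then bind endothelial immunoglobulin-type receptors: LFA-1, a pair of Itgal and Itgb2, binds ICAM-1 and ICAM-2, while alpha-4 pairs with Itgb1 to bind VCAM-1 or with Itgb7 to bind MAdCAM-1. ICAM-1 is induced by inflammatory cytokines on endothelium and on kidney tubule cells, and ICAM-2 is held constitutively on endothelium.

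Icam1 and Selp were higher in the adenine groups and Sele passed no test, so the 250 bases upstream of the RefSeq start of these 3 endothelial members are set side by side, from build GRCm38.p6 and on the gene's strand. Capitals mark TTCNNNGAA, a pattern that STAT factors can bind. The windows are chr9:21015690-21015939 for Icam1, chr1:164047984-164048233 for Sele and chr1:164115014-164115263 for Selp, all on the + strand.
Icam1: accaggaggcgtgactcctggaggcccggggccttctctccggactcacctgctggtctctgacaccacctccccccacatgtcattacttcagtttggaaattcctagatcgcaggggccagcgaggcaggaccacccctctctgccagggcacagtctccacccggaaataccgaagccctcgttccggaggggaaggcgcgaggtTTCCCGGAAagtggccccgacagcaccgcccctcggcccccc
Sele: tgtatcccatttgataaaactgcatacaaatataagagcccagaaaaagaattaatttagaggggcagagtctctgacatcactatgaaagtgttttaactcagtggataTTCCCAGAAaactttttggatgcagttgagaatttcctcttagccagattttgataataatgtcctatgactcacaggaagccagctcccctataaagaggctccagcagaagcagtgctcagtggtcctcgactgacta
Selp: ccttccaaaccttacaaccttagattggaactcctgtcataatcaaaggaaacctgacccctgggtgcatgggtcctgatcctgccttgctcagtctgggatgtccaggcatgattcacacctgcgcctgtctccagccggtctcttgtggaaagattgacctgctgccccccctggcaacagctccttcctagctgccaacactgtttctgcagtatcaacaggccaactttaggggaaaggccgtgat

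Of the 9 genes, 5 had a promoter in the RefSeq table used (Icam1, Sele, Selp, Itga4 and Itgb7), and both strands of the 250 bases were searched. TTCNNNGAA stood 42 to 34 bases upstream of the start in Icam1 and 140 to 132 bases upstream in Sele, and 7.02% of 32851 promoter windows of that length held it. TATAAA was found in Sele at 49 to 44 bases upstream, against 12.4% of all windows. GGGCGG was found in Icam1 and Itga4, against 32.7% of windows, and GAGGAA in Sele, against 23.3%. For kappaB only the form GGGRNNYYCC was searched (R is A or G, Y is C or T, N any base). It matched in 0 of the 5 windows and in 7.25% of all windows, which says only that these letters are not in this window. Sites that depart from these letters were not searched, so the windows are not shown to lack a kappaB site. No matches overlapped each other, and Selp and Itgb7 held none of the patterns searched.

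Between 5444833 and 11680809 reads per mouse were assigned to genes, and levels are given as CPM, the count of a gene relative to the normalised size of its library. The disrupted gene Apoe had between 6.1 and 26.7 CPM in the 17 mice. Markers of kidney epithelium (8 genes, among them Slc34a1, Lrp2 and Umod) were present in every mouse and summed to 15890 to 22230 CPM in Con, 5228 to 11930 in Ade and 7874 to 13450 in Ade + IMC, so that both adenine groups lay below Con. In each adenine group 5 of the 8 were lower than in Con and 0 higher (edgeR), with a median log2 fold change of -1.04 in Ade and -0.57 in Ade + IMC. Over all genes 32.2% were lower in Ade and 32.3% in Ade + IMC, so a larger share of the epithelial markers than of all genes was lower. The part of a lower epithelial share in the levels of the members was not tested. Mouse 311 of the Ade + IMC group and mouse 308 of the Ade group stood apart from their groups. The 6 B cell markers summed to 2689 CPM in mouse 311 and to at most 437.6 in the other Ade + IMC mice, and its 5 pan-leukocyte markers summed to 1294 against at most 595.5. In mouse 308 the pan-leukocyte sum was 942.3 against at most 707.3 in the other Ade mice. Fold changes of the leukocyte members are given with and without these mice. The part of lymphoid cells in the results below was not tested, and in bulk tissue more cells of a type and more RNA per cell cannot be told apart.

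Adenine raised all the leukocyte members, Icam1 and Selp, and the same 7 genes were raised with IMC in the diet. In Ade compared to Con, 7 of the 8 members that passed the filter on low counts were higher and 0 were lower (edgeR's quasi-likelihood test, Benjamini-Hochberg adjusted p below 0.1), against a background of 35.1% of the 14612 genes tested that were higher, 32.2% that were lower and 67.3% that were called in either direction. In Ade + IMC compared to Con, 7 of 8 were higher, against 30.9% of 14578 genes higher, 32.3% lower and 63.2% called. The median log2 fold change of the tested members was 2.71 in Ade and 2.86 in Ade + IMC, where the median of all genes tested was 0.019 and -0.016. Without mouse 308 and mouse 311 the medians of the members were 2.46 and 2.28, so which diet had the higher median turned with these mice. Icam2 did not pass in either comparison and Sele, low in all groups, was below the filter. Selp, with 0 to 4 reads in the Con mice, passed the filter only through the adenine groups in which it was high, so these counts and medians describe the members tested and are no support for a change of the 9. Both comparisons share the 5 Con mice, so their values are given side by side and are not independent of each other.

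**Figure D1:**
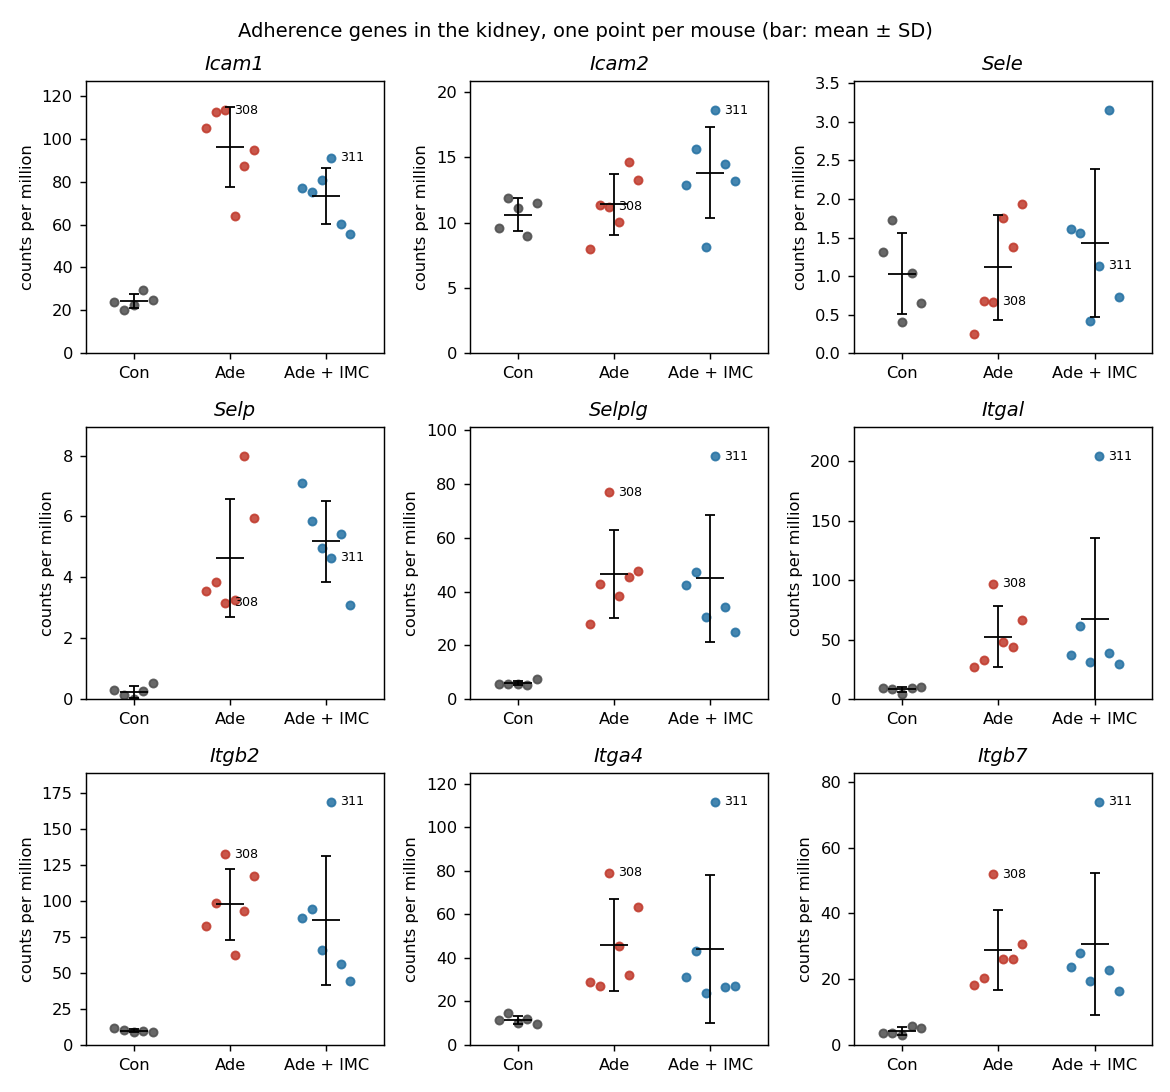
CPM of the 9 adherence genes in each kidney, with 1 point per mouse, a bar for the mean and whiskers of 1 SD, for the Con (5), Ade (6) and Ade + IMC (6) mice. Icam1, Selp, Selplg, Itgal, Itgb2, Itga4 and Itgb7 were above all Con mice in every adenine-fed mouse, Icam2 and Sele overlapped between the groups, and mice 308 and 311 are labelled. The share of all genes that were apart from Con in this way was not counted.

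Icam1 (ENSMUSG00000037405, chr9:21015985-21028817, + strand) codes for the endothelial and epithelial ligand of LFA-1. In the Con mice it was at 23.9, 20.4, 22.6, 29.4 and 24.8 CPM. It ranged from 64.1 to 113.3 with a median of 100 in Ade, and from 55.7 to 91.2 with a median of 76.0 in Ade + IMC. Neither adenine group overlapped with Con, while the Ade and Ade + IMC mice overlapped with each other. The log2 fold change against Con was 2.01 in Ade (SE 0.15, adjusted p = 1.65e-07, edgeR) and 1.57 in Ade + IMC (SE 0.14, adjusted p = 1.94e-06, edgeR). Of its 4360 exonic bases, 511 are shared with Gm47079 on the other strand, and whether reads were counted by strand is not given in the sources used here.

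Icam2 (ENSMUSG00000001029, chr11:106377656-106388075, - strand), the constitutive endothelial ligand, was at 9.59, 11.8, 11.1, 8.96 and 11.5 CPM in the Con mice. It ranged from 8.01 to 14.6 with a median of 11.3 in Ade, and from 8.16 to 18.6 with a median of 13.8 in Ade + IMC. All 3 groups overlapped, although 5 of the 6 Ade + IMC mice were above every Con mouse. The log2 fold change was 0.13 in Ade (95% confidence interval -0.20 to 0.47, adjusted p = 0.483, edgeR) and 0.36 in Ade + IMC (-0.03 to 0.76, adjusted p = 0.105, edgeR). The second value passed the threshold without mouse 310 (0.48, adjusted p = 0.0109) or without mouse 412 (0.42, adjusted p = 0.0847). It also passed under other scalings of library size (0.38 with DESeq2's size factor method in edgeR, adjusted p = 0.0914). The Ade value depended on scaling too. The difference of mean log2 CPM was 0.09 (exact permutation p = 0.565), and 0.40 with plain library totals (exact permutation p = 0.0368).

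Sele (ENSMUSG00000026582, chr1:164048234-164057677, + strand) was close to the limit of detection in every group. Its reads numbered 13, 12, 3, 8 and 5 in the Con mice, from 2 to 15 (median 8.5) in Ade and from 3 to 22 (median 10) in Ade + IMC. The mean was 1.03 CPM in Con, 1.11 in Ade and 1.43 in Ade + IMC, with SDs of 0.53, 0.68 and 0.96, and the groups overlapped throughout. An exact permutation test of the log2 CPM gave p = 0.939 for Ade and 0.4935 for Ade + IMC against Con, so a change was not detectable at this depth. With no filter on low counts edgeR gave log2 fold changes of 0.11 (adjusted p = 0.872) and 0.42 (adjusted p = 0.518).

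Selp (ENSMUSG00000026580, chr1:164115264-164150026, + strand), the selectin stored in endothelial and platelet granules, had the fewest reads among the members tested. Its reads numbered 3, 1, 0, 2 and 4 in the Con mice, 10 in all, against 19 to 64 (median 31.0) in Ade and 21 to 49 (median 39.5) in Ade + IMC. Every adenine-fed mouse was above every Con mouse. The mean rose from 0.246 CPM in Con (SD 0.194) to 4.63 in Ade (SD 1.94) and 5.18 in Ade + IMC (SD 1.34). The fitted log2 fold change was 4.14 in Ade (95% confidence interval 3.17 to 5.12, adjusted p = 5.11e-06, edgeR) and 4.25 in Ade + IMC (3.39 to 5.12, adjusted p = 2.84e-06, edgeR). With so few reads in Con the size depends on how low counts are handled, and the difference of mean log2 CPM with a prior count of 2 was 3.28 and 3.47, and 2.51 and 2.69 with a prior count of 5. On that last scale Selp was below Itgb2 (3.19 and 2.92), so its place at the top of the fitted fold changes depended on the handling of low counts. Markers of platelets, which also hold P-selectin, summed to 9.18 to 14.7 CPM in Con, 11.8 to 19.8 in Ade and 10.1 to 16.4 in Ade + IMC over 4 genes. Most of that sum was Itga2b, with a mean of 10.2 CPM in Con, 8.14 in Ade and 7.81 in Ade + IMC. The platelet chemokine Pf4 had 1 to 11 reads in Con, 21 to 63 in Ade and 25 to 52 in Ade + IMC, with fitted log2 fold changes of 3.24 and 3.02, and like Selp it entered the test only through the adenine groups. The part of platelets in the Selp result was not tested. Of its 4413 exonic bases, 624 are shared with Gm16548 and Gm16587 on the other strand.

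Selplg (ENSMUSG00000048163, chr5:113818536-113832644, - strand), which codes for the leukocyte ligand of the selectins, was at 5.65, 5.63, 5.69, 5.33 and 7.45 CPM in the Con mice. It ranged from 27.8 to 77.0 (median 44.2) in Ade and from 24.9 to 90.5 (median 38.3) in Ade + IMC, apart from Con in both. The log2 fold change was 2.99 (SE 0.24, adjusted p = 2.88e-07, edgeR) and 2.90 (SE 0.32, adjusted p = 1.00e-05, edgeR). It was 2.79 without mouse 308 and 2.57 without mouse 311.

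Itgb2 (ENSMUSG00000000290, chr10:77530252-77565708, + strand) codes for the beta-2 subunit that all leukocyte beta-2 integrins share. It had 11.6, 10.1, 8.94, 9.87 and 8.88 CPM in the Con mice, 62.5 to 132.3 (median 95.8) in Ade and 44.4 to 168.9 (median 77.2) in Ade + IMC. The adenine groups did not overlap with Con, with log2 fold changes of 3.32 (SE 0.19, adjusted p = 1.75e-08, edgeR) and 3.11 (SE 0.32, adjusted p = 6.03e-06, edgeR). They were 3.22 without mouse 308 and 2.79 without mouse 311.

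Itgal (ENSMUSG00000030830, chr7:127296260-127335138, + strand), the alpha subunit of LFA-1, had 8.98, 8.38, 4.61, 9.48 and 10.2 CPM in the Con mice. It ranged from 27.3 to 96.9 (median 46.1) in Ade and from 29.9 to 204.4 (median 38.2) in Ade + IMC. The high end of each adenine group was a single animal, mouse 308 in Ade and mouse 311 in Ade + IMC, where the next mouse was at 61.7. The log2 fold change was 2.67 in Ade (SE 0.33, adjusted p = 1.27e-05, edgeR) and 3.001 in Ade + IMC (SE 0.55, adjusted p = 0.000442, edgeR), and without mouse 308 and mouse 311 it was 2.41 and 2.23, still past the threshold.

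Itga4 (ENSMUSG00000027009, chr2:79255426-79333123, + strand) codes for the alpha-4 subunit of lymphocyte and monocyte integrins. The Con mice had 11.5, 14.6, 10.3, 11.7 and 9.54 CPM, the Ade mice 27.0 to 79.2 (median 39.0) and the Ade + IMC mice 24.1 to 111.8 (median 29.2). It had the lowest fold changes among the leukocyte members, with log2 values of 2.02 in Ade (SE 0.29, adjusted p = 4.49e-05, edgeR) and 1.93 in Ade + IMC (SE 0.40, adjusted p = 0.00114, edgeR). Without mouse 308 the first was 1.80, and without mouse 311 the second was 1.38 (adjusted p = 1.74e-05). Of its 13978 exonic bases, 1124 are shared with Cerkl on the other strand.

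Itgb7 (ENSMUSG00000001281, chr15:102215995-102231944, - strand), a beta partner of alpha-4 on lymphocytes, had 3.73, 3.75, 2.98, 5.85 and 5.23 CPM in the Con mice. It ranged from 18.2 to 52.0 (median 26.1) in Ade and from 16.3 to 73.9 (median 23.2) in Ade + IMC, both apart from Con. The log2 fold change was 2.76 (SE 0.29, adjusted p = 3.08e-06, edgeR) and 2.82 (SE 0.41, adjusted p = 7.66e-05, edgeR), and 2.51 without mouse 308 and 2.33 without mouse 311.

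**Figure D2:**
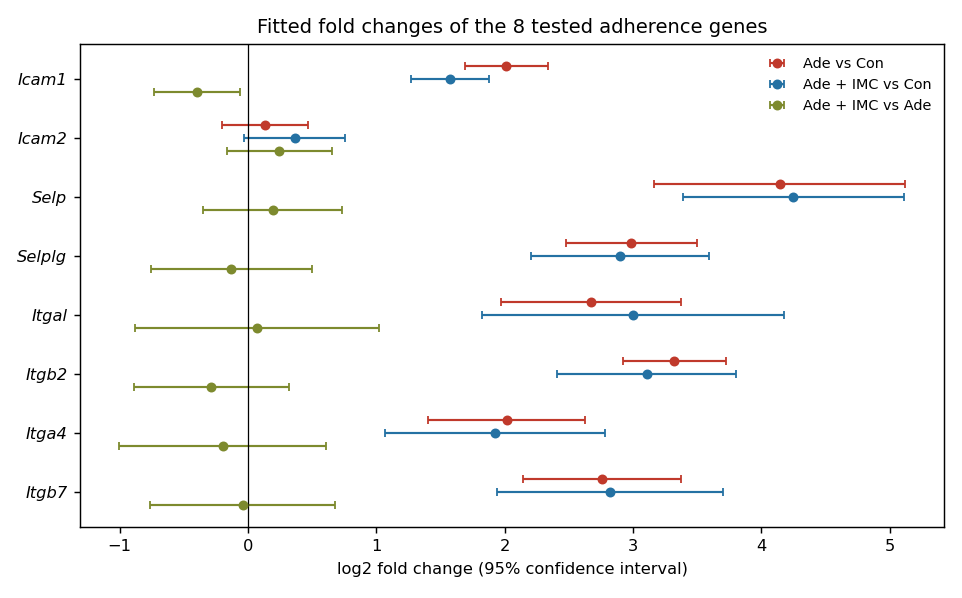
Fitted log2 fold changes (points) with 95% confidence intervals (lines) of the 8 members that passed the low-count filters, for Ade against Con, Ade + IMC against Con (both edgeR) and Ade + IMC against Ade (limma). The intervals of 7 members lie above 0 in both comparisons with Con and those of Icam2 cross 0, while against Ade the interval of Icam1 alone lies below 0, from -0.73 to -0.06, before adjustment for the number of genes.

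The first digit of the mouse number (2, 3 or 4), whose meaning the labels do not give, divides each group, so each difference was also taken within a digit. For the 7 raised members the difference of mean log2 CPM within a digit lay between 1.09 (Itga4, digit 2) and 3.82 (Itgal, digit 3) in Ade against Con, and between 1.21 (Icam1, digit 4) and 3.81 (Selp, digit 2) in Ade + IMC against Con. Each of the 7 had an exact two-sided permutation p of 0.002165 in both comparisons, the smallest that 5 against 6 mice can give. That value restates that these groups did not overlap with Con. How many of all genes were apart in this way was not counted, while 67.3% and 63.2% of the genes tested were called.

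Per kilobase of exon, with the length taken as the union of all annotated exons, Icam2 and Icam1 were the most abundant members in Con kidneys, at 5.57 (SD 0.66) and 5.55 (SD 0.76) CPM per kilobase, and did not differ beyond their spread. Itgb2 followed at 3.24 (SD 0.36), then Itgb7, Selplg and Itgal at 1.56, 1.39 and 1.27, which overlapped, then Itga4 at 0.824, Sele at 0.353 and Selp at 0.0557. In the Ade kidneys the order was led by Itgb2 at 32.0 (SD 8.13) and Icam1 at 22.1 (SD 4.28), with Selplg, Itgb7 and Itgal at 10.9, 10.4 and 8.005 and overlapping, Icam2 sixth at 5.99, and Selp above Sele at 1.049 and 0.382. The Ade + IMC kidneys had the same 2 genes first, Itgb2 at 28.3 (SD 14.6) and Icam1 at 16.8 (SD 3.03), whose ranges overlapped. Without mouse 311 Itgb2 was at 22.9 (SD 6.95) and Icam1 ranged from 12.8 to 18.55, and without mouse 308 the Ade values were 29.7 (SD 6.63) and 21.3 (SD 4.27), with Itgb2 first on average in each group.

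No member passed the test between the 2 adenine diets, and Icam1 was called lower with IMC only when the mouse number entered the fit. In Ade + IMC compared to Ade, 0 of the 8 members tested passed (limma on log2 of the normalised count plus 1, adjusted p below 0.1), where 0% of the 14696 genes tested passed. On the recovered reads edgeR called 0 genes and DESeq2 37. Before adjustment, 493 genes were lower and 495 higher at p below 0.05. The log2 fold changes were between -0.40 (Icam1) and 0.25 (Icam2). The intervals were wide for the leukocyte members, from -0.88 to 1.02 for Itgal and from -0.89 to 0.32 for Itgb2, so changes up to these bounds are within what the data allow. The direction for Itgal turned to -0.34 without mouse 311. Without that mouse Itgb2 moved from -0.29 to -0.51 (adjusted p = 0.449, limma) and Itga4 from -0.20 to -0.52 (adjusted p = 0.496, limma), and neither passed. Leaving out mouse 308 moved values the other way, to -0.19 for Itgb2 and -0.014 for Itga4. Selplg then turned to 0.033 and Itgb7 to 0.15, and no member passed.

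For Icam1 the fold change was -0.40 on the log2 scale (SE 0.16, adjusted p = 0.711, limma). The Ade + IMC mice 410 and 412 were below every Ade mouse. The exact permutation p was 0.0498. Within a first digit, the Ade + IMC mice had the lower Icam1 mean each time. The difference of mean log2 CPM was -0.51 for digit 2 (2 against 2 mice), -0.40 for digit 3 (2 against 1) and -0.48 for digit 4 (2 against 3). An exact permutation test within digits gave p = 0.0111 over 180 splits. With the digit as a block the fitted change was -0.49 (adjusted p = 0.0627, limma) or -0.51 (adjusted p = 0.0711, edgeR), past the threshold, as were 133 of all genes by limma and 104 by edgeR. Leaving out 1 mouse in turn under the block gave -0.55 to -0.45, and Icam1 remained past the threshold without mouse 407, 310, 311 or 410 (adjusted p of 0.0107 to 0.0908) but not without any of the other 8 (0.134 to 0.188). The blocked value had no pairing of mice in the labels behind it.

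**Figure D3:**
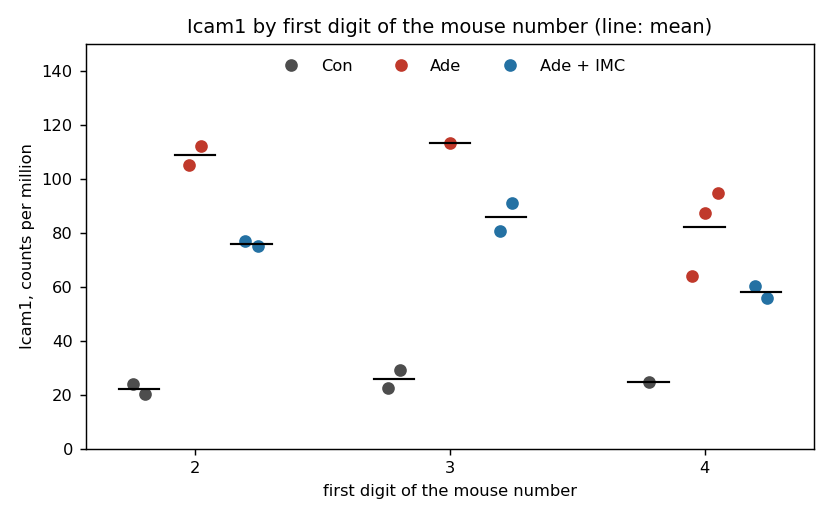
Icam1 in CPM for each mouse (points), placed by the first digit of the mouse number and coloured by group, with a line at each mean. Within each digit the Ade + IMC mean is below the Ade mean and both are above the Con mice. Mouse 407, at 64.1, is the lowest Ade mouse.

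The level of a member was next set against markers of the cells that carry it. Per mouse, the mean log2 CPM of 5 pan-leukocyte markers (Ptprc, Coro1a, Laptm5, Cd52, Cd53) or 8 endothelial markers (among them Kdr, Tie1 and Eng) was subtracted from that of the member, and 30 such differences between groups were tested by exact permutation with Benjamini-Hochberg adjustment. All 5 pan-leukocyte markers were higher in both adenine groups than in Con (edgeR), and their sum ran from 73.4 to 83.1 CPM in Con, 435.3 to 942.3 in Ade and 338.6 to 1294 in Ade + IMC. Of the 8 endothelial markers 5 were lower and 0 higher in Ade, and 2 were lower and 1 higher in Ade + IMC, with sums of 825.9 to 1121, 450.0 to 928.2 and 640.6 to 1163. Over all genes 35.1% were higher and 32.2% lower in Ade, and 30.9% and 32.3% in Ade + IMC. All 5 calls in Ade were thus in 1 direction, the lower one, which held a larger share of these markers than of all genes.

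Among the leukocyte members, Itga4 fell relative to the pan-leukocyte markers, with a difference of log2 ratios of -1.11 in Ade and -1.12 in Ade + IMC against Con (both adjusted p = 0.0108, exact permutation, groups apart). The ratios of Selplg (-0.12 and -0.06), Itgal (-0.44 and -0.18), Itgb2 (0.26 and 0.16) and Itgb7 (-0.36 and -0.21) did not pass in either comparison, with adjusted p between 0.135 and 0.594. In Ade these calls depended on single mice and on the prior count: Itgb7 passed at -0.42 with a prior count of 5 in place of 2, Itgal passed at -0.60 and Itgb7 at -0.44 without Con mouse 301, and Itgb2 passed at 0.33 without Ade mouse 407. Without Ptprc in the marker list Selplg, Itgal and Itgb7 passed in Ade at -0.27, -0.59 and -0.50, and Selplg and Itgb7 passed in Ade + IMC at -0.20 and -0.34. Without Cd52 Itgb2 passed at 0.38 in Ade and 0.27 in Ade + IMC. Of the markers of single leukocyte types, 7 of 7 myeloid markers were higher than in Con in both adenine groups. Of all genes 35.1% were higher in Ade and 30.9% in Ade + IMC. Several T cell and B cell markers, such as Cd2 (1 to 7 reads in Con) and Ms4a1 (1 to 3), entered the test only through the adenine groups, so those lists are given by their sums. Of the 7 neutrophil markers, 6 were in both tables, and they summed to 1.44 to 3.64 CPM in Con, 21.6 to 42.3 in Ade and 13.2 to 50.2 in Ade + IMC. Those that were tested, such as S100a9 (1 to 4 reads in Con) and Csf3r (10 to 21), passed the filter on low counts only through an adenine group, so no count of calls is given for this list. T cell markers summed to 7.72 to 15.7 CPM in Con, 66.7 to 236.9 in Ade and 68.4 to 342.9 in Ade + IMC. B cell markers summed to 5.07 to 12.1 CPM in Con, 30.3 to 944.3 in Ade and 63.1 to 2689 in Ade + IMC, where the second highest mouse was at 437.6. Myeloid markers summed to 193.9 to 237.3, 1271 to 2149 and 1163 to 1923 CPM. The part of any of these cell types in the levels of the members was not tested.

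Relative to endothelial markers Icam1, Icam2 and Selp rose, and Sele did not pass. The endothelial markers were themselves lower in Ade, with a median log2 fold change of -0.54, and tubule cells can also carry Icam1. The ratios are therefore not levels per endothelial cell. Icam1 gained 2.42 in Ade and 1.65 in Ade + IMC on the log2 ratio scale, and Selp 3.73 and 3.55 (each adjusted p = 0.0108, exact permutation). The size for Selp moved with the prior count added to its few reads, from 4.601 and 4.422 with a prior count of 0.5 to 2.96 and 2.76 with 5. Relative to pan-leukocyte markers Icam1 fell by 1.02 in Ade and by 1.23 in Ade + IMC (both adjusted p = 0.0162, exact permutation). The ratio of Icam2 was higher by 0.54 in Ade (adjusted p = 0.0289) and by 0.41 in Ade + IMC (adjusted p = 0.0649), although its level did not pass by itself. The second was lost without Con mouse 201 (0.40), 202 (0.39) or 302 (0.37) and without the marker Kdr (0.34). The ratio of Sele differed by 0.48 and 0.38 (adjusted p of 0.325 and 0.439). Between Ade + IMC and Ade none of the 10 ratios passed, and the nearest was Icam1 to endothelial markers at -0.77 (exact permutation p = 0.0433, adjusted p = 0.118). It passed without Con mouse 301 (-0.77), Ade mouse 407 (-0.92) or 408 (-0.88), or Ade + IMC mouse 310 (-0.90). Leaving Ptprc or Cd52 out of the pan-leukocyte markers also made it pass (-0.77 each). The Con mice and the pan-leukocyte markers enter that comparison only through the adjustment over the 30 tests.

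**Figure D4:**
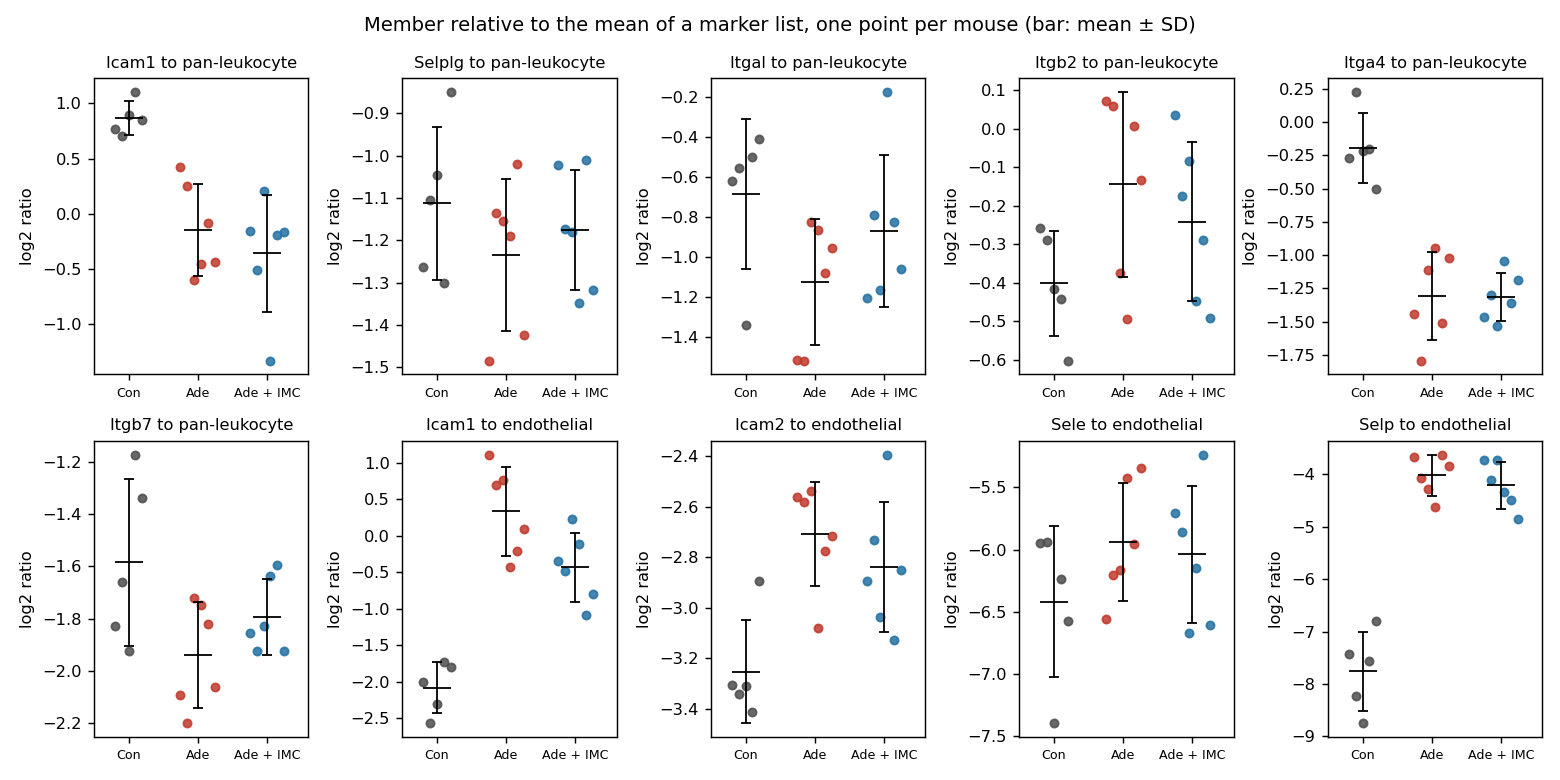
Log2 CPM of a member minus the mean of the marker list named above each panel, with 1 point per mouse and a bar with whiskers for mean and SD, in Con, Ade and Ade + IMC. Icam1 and Selp relative to endothelial markers and Itga4 and Icam1 relative to pan-leukocyte markers are apart from Con in both adenine groups.

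The alpha subunits that pair with Itgb2 changed their proportions in Ade. Of the summed counts per kilobase of Itgal, Itgam (the alpha subunit of Mac-1, on myeloid cells) and Itgax (CD11c, on dendritic cells and macrophages), Itgal made up 41.4, 38.8, 27.1, 33.0 and 45.9% in the Con mice. Its share was 21.4% on average in Ade (SD 8.2) and 28.8% in Ade + IMC (SD 12.5), against 37.3% in Con (SD 7.3), with groups that overlapped. It fell by 15.9 percentage points in Ade (adjusted p = 0.0455, exact permutation, 12 tests), and the difference was -8.44 points in Ade + IMC (adjusted p = 0.378). Itgam took 22.6% in Con, 34.1% in Ade (adjusted p = 0.026, exact permutation) and 29.96% in Ade + IMC (adjusted p = 0.223), and Itgax 40.1, 44.5 and 41.2%, which did not pass. Without Con mouse 403 the difference of Itgal in Ade was -13.7 points and no longer passed. Without mouse 311, in which Itgal made up 53.1% and Itgam 15.2%, the changes in Ade + IMC were -13.3 points for Itgal (exact permutation p = 0.0159) and 10.3 points for Itgam (exact permutation p = 0.00794), and both passed. No share differed between the 2 adenine diets past the threshold. The 3 shares add up to the whole in each mouse, so the changes of Itgal and Itgam are not independent of each other. Only the share of Itgal fell, and its level was higher in both adenine groups than in Con. Itgad, the fourth alpha subunit, was not analysed here.

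The whole-tissue ratio of Itgb7 to Itgb1 counts was higher in both adenine groups. The log2 ratio of Itgb7 to Itgb1 counts was -6.83, -6.71, -6.94, -6.17 and -6.02 in the Con mice, and its mean rose to -4.18 in Ade (SD 0.62) and -4.14 in Ade + IMC (SD 0.67), apart from Con in each (both adjusted p = 0.013, exact permutation). Itgb1, which most kidney cells also carry, was itself higher in Ade by 0.35 on the log2 scale (adjusted p = 0.0086, edgeR). The ratio therefore does not show which beta subunit alpha-4 was paired with, and relative to pan-leukocyte markers Itgb7 did not pass (-0.36 and -0.21). Mouse 308 and mouse 311 had the highest ratios, -3.08 and -2.86. Between the adenine diets the difference was 0.037 (exact permutation p = 0.903) and -0.22 without mouse 311.

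**Figure D5:**
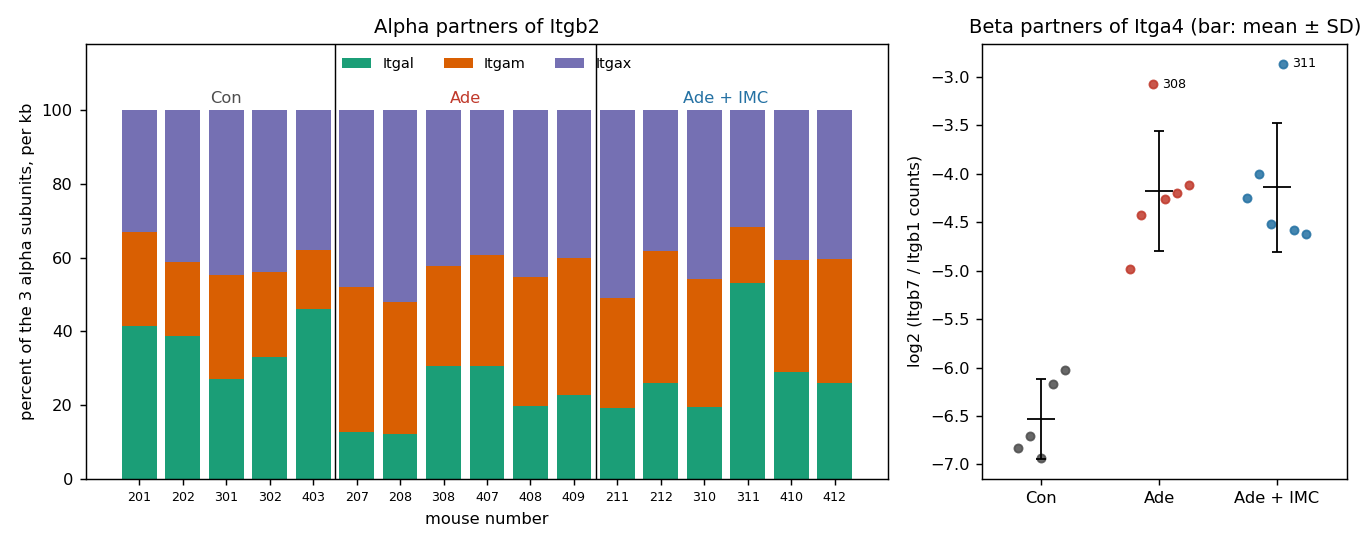
Left, the share of Itgal, Itgam and Itgax in their summed counts per kilobase, in percent, as a stacked bar for each mouse number, with vertical lines between Con, Ade and Ade + IMC. Right, the log2 ratio of Itgb7 to Itgb1 counts for each mouse with mean and SD. Mouse 311 has the largest Itgal share, 53.1%, and every adenine-fed mouse has a higher Itgb7 to Itgb1 ratio than every Con mouse.

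Other genes of the adhesion pathway were counted from a list of 62, of which 54 passed the filter. In Ade compared to Con 35 were higher, 5 lower and 14 not called, and in Ade + IMC 36 were higher, 6 lower and 12 not called (edgeR), with median log2 fold changes of 0.63 and 0.64. Of all genes tested 35.1% were higher and 32.2% lower in Ade, and 30.9% and 32.3% in Ade + IMC. Called in either direction were 67.3% and 63.2%. For 5 of the 54 the Con mice alone would not have passed the filter. Among the other 49, 30 were higher and 5 lower in Ade and 31 and 6 in Ade + IMC. Between the adenine diets 0 of the 54 passed (limma), and 0 of all genes did.

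Among endothelial receptors, 4 of the 6 tested (11 listed) were higher and 1 lower in Ade, where 35.1% of all genes were higher and 32.2% lower. The counts of the other roles below are read against the same shares. A role names the list that a gene was put in, and which kidney cells carried the gene was not tested. Vcam1, the receptor of alpha-4 beta-1, was at 19.8 to 24.4 CPM in Con, 190.2 to 425.7 in Ade and 108.5 to 229.1 in Ade + IMC, with log2 fold changes of 3.97 and 3.06 against Con (adjusted p = 9.92e-09 and 1.85e-07, edgeR) and -0.88 between the diets (adjusted p = 0.643, limma). Cx3cl1, a chemokine that is tethered to the endothelial surface, was higher by 0.95 and 0.84, and Emcn, a mucin of capillary endothelium, was lower by 0.39 in Ade (adjusted p = 0.0435) and at -0.09 in Ade + IMC (adjusted p = 0.675). Madcam1, the receptor of alpha-4 beta-7, had 0 to 1 reads in Con, 1 to 5 in Ade and 1 to 6 in Ade + IMC and was not tested.

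Among the ligands of selectins, Cd44, also a hyaluronan receptor, was higher in Ade by 4.45 and Spn (CD43) by 2.39 on the log2 scale, while Glg1, an E-selectin ligand of the Golgi, was at -0.07 (adjusted p = 0.468). Other leukocyte integrins were higher in 7 and lower in 1 of the 10 tested in Ade. Of the 8 that the Con mice alone would have taken past the filter, 5 were higher and 1 lower, which leaves out Itga2 (2 to 18 reads in Con) and Itgae (9 to 26). In Ade + IMC 7 were higher and 3 lower of the 10, and 5 and 3 of the 8, where 30.9% of all genes were higher and 32.3% lower. The largest changes in Ade were Itgam at 4.08 and Itgax at 3.65. Itgae, the alpha partner of Itgb7 on intraepithelial T cells, was higher by 2.67, and Itgav was at -0.0038 (adjusted p = 0.988). The enzymes that build selectin ligands were higher in 5 and lower in 1 of 8 (67.3% of all genes were called in either direction). St3gal4, a sialyltransferase, was up by 1.24. Gcnt1, which starts the core-2 branch that PSGL-1 needs, fell by 1.70. It had 584.0 to 925.8 CPM in Con and 147.3 to 309.9 in Ade, where the 5 pan-leukocyte markers together summed to 73.4 to 83.1 in Con. These are whole-kidney values, and which cells carried Gcnt1 was not tested. St3gal6 was at -0.21 (adjusted p = 0.107).

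Of the 13 genes of integrin activation, 9 were higher and 0 lower in Ade, and 8 of 12 without Skap1 (9 to 37 reads in Con), which the Con mice alone would not have taken past the filter. Fyb, an adaptor of T cells and myeloid cells, was higher by 2.83 and Fermt3 (kindlin-3), the kindlin of blood cells, by 2.67, whereas Tln1 (talin), present in most cells, was at 0.0042 (adjusted p = 0.969). Of the 12 genes of transmigration, 6 were higher and 2 lower in Ade, a share called that was near the 67.3% of all genes, and Sirpa was higher by 0.94. Cd226, fitted at 2.29, had 2 to 6 reads in the Con mice and 10 to 24 in the Ade mice and entered the test only through the group in which it was high, so its call, counted among the 6, is a description. Without it 5 of 11 were higher. The endothelial junction genes Pecam1 and Cdh5 had -0.07 (adjusted p = 0.756) and 0.17 (adjusted p = 0.294), and F11r, a tight junction protein, -0.05 (adjusted p = 0.617, each by edgeR).

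Likeness to a member was measured as the root mean square difference of log2 CPM over the 17 mice, each gene centred on its own mean, among 14325 genes. Nearest to Icam1 were Cxcl16, a membrane-bound chemokine (0.136), Efhd2 (0.149) and Birc3, an inhibitor of apoptosis (0.155), where the median of all genes was 0.896. Nearest to Icam2 were Rgs5, a pericyte gene (0.152), Kcnab1 (0.181) and Tm4sf1 (0.183), against a median of 0.448. Nearest to Itgb2 were Ncf1, a subunit of the phagocyte oxidase (0.169), Vav1 (0.183) and Tmem173, which codes for STING (0.19), against a median of 1.502. Selp had no gene as close, with Mmp2, a matrix metalloprotease (0.429), Siglec1, a macrophage lectin (0.444), and Adamts2 (0.448) nearest and a median of 1.62, and its own low counts enter these distances.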

How the data were processed

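RNA of whole kidneys from 17 of the 21 labelled mice was used, each mouse being 1 library and 1 replicate. The members and gene lists were chosen with earlier results of these data known. According to the methods of the study reads were aligned to mm10 with STAR, while the submitters' processing notes name Trimmomatic 0.39, FastQC 0.11.8, Bowtie2 2.2.5, HTSeq 0.9.1 and DESeq2. The release of the gene annotation and whether strand was used are not given in the sources used here. The authors deposited raw read counts per gene for the Con and Ade mice (21004 genes). The authors also deposited, for the Ade and Ade + IMC mice, a signal: gene counts divided by DESeq2 size factors (21287 genes). Deposited columns with the authors' own comparisons (log2 fold change, score, p-value) were not used.

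Dividing the lowest step out of the normalised values gave whole reads for 100% of values (tolerance 1e-06 of a read), and for the Ade mice held in both tables no value (0) differed from the raw counts. The 20634 genes in both tables were used for comparisons of Ade + IMC with Con and for CPM (TMM over the 17 mice). Totals per mouse were 7716126 to 11680809 (Con), 5444833 to 7673215 (Ade) and 5728589 to 8305968 (Ade + IMC), and 3 reads correspond to between 0.257 and 0.551 CPM. No 2 mice of a group agreed within counting noise (lowest chi-square per degree of freedom 3.97).

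Comparisons with Con used edgeR 4.0.16 (TMM, filterByExpr, quasi-likelihood test). Ade + IMC against Ade used limma 3.58.1 with trend on log2(normalised count + 1) for genes with a mean of at least 10, a scale that understates changes of low genes. Adjusted p-values are Benjamini-Hochberg over all genes tested, with a threshold of 0.1. The SE of an edgeR fold change was derived from its F statistic. For single values, exact permutation tests (two-sided) were run in Python 3.11.15 on log2 CPM (prior count 2). The fits were tested on simulated data. DESeq2 1.42.0, other scalings, filters, pseudocounts, the mouse number's first digit as a block, and leaving out each mouse were alternatives. The block with 1 mouse left out, for Icam1, was added after the data were seen. Coordinates and exonic lengths (union of exons) are from GENCODE vM21 on GRCm38.

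Genes named are the 9 members, in each role of the pathway list the 2 called genes with the largest change in Ade and the 1 tested with the smallest, 10 fixed genes (1 of them is not reported here), and the 3 genes nearest to Icam1, Icam2, Selp and Itgb2. Columns that could not be tied to a mouse numbered 0.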

Additional observations from a re-analysis of the deposited data

Results flagged for a closer look

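Of 69 sets of values in single groups, 11 had a highest or lowest mouse set far apart from the others of its group. For independent sets with normally distributed values chance alone flags about 1 in 20, or about 3. The sets here share genes and mice, so the 11 cannot be measured against that number. Mouse 311 of the Ade + IMC group accounted for 7 of the 11. It had the highest Selplg (90.48 CPM, others at most 47.2), Itgal (204.4, others at most 61.7), Itga4 (111.8, others at most 43.3) and Itgb7 (73.92, others at most 28.0). It also had the highest Itgal share of the 3 alpha subunits (53.14%, others at most 28.9%), the lowest Itgam share (15.22%, others at least 30.02%) and the highest log2 ratio of Itgb7 to Itgb1 (-2.864, others at most -4.01). Its B cell marker sum of 2689 CPM stood beside these values, and its part in them was not tested.

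Mouse 308 had the highest Itgb7 of the Ade group (51.96 CPM, others at most 30.6). In the Con group mouse 403 had the highest Selplg (7.447 CPM, others at most 5.69) and the highest log2 ratio of Icam2 to endothelial markers (-2.893, others at most -3.30), and mouse 301 had the lowest log2 ratio of Itgal to pan-leukocyte markers (-1.335, others at least -0.618).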

How the results depend on the processing

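Against Con, the 7 calls of members stood under every alternative run and in both comparisons, and the number of members called was 7 throughout for Ade and 7 or 8 for Ade + IMC, where Icam2 was the eighth. In Ade + IMC against Ade, genes called were 0 in the limma fit, 37 with DESeq2, 133 with the replicate block (first digit of the mouse number) in limma and 104 with the block in edgeR. Under both blocked fits 1 member was called, Icam1. The first digit is not a pairing stated in the labels: mice of different groups with the same digit had a mean correlation of residuals of 0.071 (-0.26 to 0.512 over 31 pairs), against -0.034 for other pairs. The block changed no other call of a member. The sign of small changes between the adenine diets turned with the fit: Itgb7 was 0.0756 with edgeR and 0.0842 with DESeq2 on recovered reads (main value -0.04), and Itgal was -0.10 under the block (main 0.07). Leaving out 1 mouse gave -0.34 to 0.27 for Itgal, -0.36 to 0.0331 for Selplg, -0.34 to 0.15 for Itgb7, -0.51 to -0.12 for Itgb2 and -0.52 to -0.014 for Itga4.

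Of the ratios to markers, 5 differed in Ade, 5 in Ade + IMC and 0 between the adenine diets. These numbers were 8 and 1 (Ade, and between the diets) without Ptprc and 1 (between the diets) without Cd52, and the last was 0 to 1 with 1 mouse left out. In Ade + IMC the number was 7 without Ptprc, 6 without Cd52, 4 without Kdr and 4 to 5 with 1 mouse left out. Signs turned for Itga4 between the diets without Ptprc (0.0028) or Laptm5 (0.011) and for Selplg without Cd52 (0.0046 in Ade, 0.0503 in Ade + IMC). With 1 mouse left out, Itga4 ranged from -0.11 to 0.0619 and Sele to endothelial markers from -0.26 to 0.0302 between the diets, and Selplg from -0.11 to 0.0035 in Ade + IMC. Integrin partner measures differing in Ade + IMC numbered 1, and 1 to 3 with 1 mouse left out. The Itgax share there ranged from -0.83 to 3.002 points, and Itgb7 to Itgb1 between the diets from -0.22 to 0.26.

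With library totals in place of TMM, Icam2 was higher by 0.40 in Ade (exact permutation p = 0.0368) and by 0.60 in Ade + IMC (p = 0.0216), and Icam1 between the diets had p = 0.0519. Depth limits Sele, Selp in Con and Madcam1, which had 0 to 22 reads in the mice concerned.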
